A study of Homo sapiens with 2 samples.

Results

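Transcription factors that drive the epithelial to mesenchymal transition, together with vimentin, were read in MDA-MB-231 cells, an established human breast carcinoma line. The set held 8 genes: SNAI1, SNAI2, ZEB1, ZEB2, TWIST1, TWIST2, PRRX1 and VIM. They were chosen by name, and every probe set whose annotation gave a member as its only symbol was read. This gave 18 of the 45278 probe sets with 1 symbol, and 8 of the 18244 genes that those probe sets cover. Total RNA of a clone with stable knockdown of UGT8, the galactosylceramide synthase of the endoplasmic reticulum, was hybridised to 1 Affymetrix array. Total RNA of the parental control cells was hybridised to 1 array. Both were grown in the same low-glucose DMEM, per the labels, and harvested at the same interval after passage. Since the knockdown was read in a single clone and the control in its parental cells, the effects of cloning and of the knockdown cannot be told apart. The knockdown reagent is not given in the sources used here.

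In an epithelial to mesenchymal transition, cells lose junctions and polarity and gain migratory and matrix-producing properties. Snail factors (SNAI1 and SNAI2) and ZEB factors (ZEB1 and ZEB2) are zinc finger repressors that bind E-boxes in the promoters of epithelial genes such as CDH1. Twist factors (TWIST1 and TWIST2) are basic helix-loop-helix proteins that bind DNA as dimers, often with E proteins. PRRX1 is a paired-related homeodomain factor of mesenchyme, and VIM encodes vimentin, the type III intermediate filament protein of mesenchymal cells. ZEB1 and ZEB2 and the microRNAs of the miR-200 family repress each other. MDA-MB-231 is widely used as a model of mesenchymal breast carcinoma.

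ZEB1, ZEB2 and PRRX1 were lower in the UGT8-knockdown clone, while SNAI1, SNAI2 and VIM differed little and TWIST1 and TWIST2 were near the background of the array. The brightest ZEB1 probe set was 1.71-fold lower, that of ZEB2 1.82-fold lower and that of PRRX1, which lay below the level floor and is not counted among the called genes, 1.71-fold lower. All 3 of these probe sets carry a suffix for possible cross-hybridisation. Without such probe sets ZEB1 had no reading, ZEB2 differed by -0.53 and no member reached 1.5-fold. PRRX1 then differed by -0.31, in a reading under the mean of the background probe sets on both arrays. SNAI1 and SNAI2 were within 1.07-fold and 1.05-fold of the control, and VIM within 1.01-fold. With 1 array in each group there is no replicate error. No difference was tested, no p-value can be given, and each value describes these 2 arrays. Differences are log2 values of the knockdown array minus the control array, as deposited.

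The promoters of ZEB1, ZEB2 and PRRX1 are shown because these genes were lower together. Each sequence is the 250 bases before an annotated start, 5′ to 3′ on the gene's strand, from RefSeq on GRCh38.p14. Capitals mark the E-box letters CAGGTG or, on the other strand, CACCTG. These are the core letters that Snail and ZEB proteins are known to bind. From the table used here, starts were read for 5 of the 8 genes, and ZEB1 had 7 of them. No window of SNAI1, SNAI2 or TWIST1 was read, so their matches are not known here. The ZEB1 window with the most matches is shown, at chr10:31318966-31319215 on the plus strand. The ZEB2 window lies at chr2:144520120-144520369 on the minus strand and the PRRX1 window at chr1:170663881-170664130 on the plus strand.
ZEB1: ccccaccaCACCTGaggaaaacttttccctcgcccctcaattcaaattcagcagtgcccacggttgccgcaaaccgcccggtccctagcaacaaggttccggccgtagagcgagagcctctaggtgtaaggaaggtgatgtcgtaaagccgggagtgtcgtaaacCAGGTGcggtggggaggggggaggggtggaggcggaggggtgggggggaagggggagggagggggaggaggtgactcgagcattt
ZEB2: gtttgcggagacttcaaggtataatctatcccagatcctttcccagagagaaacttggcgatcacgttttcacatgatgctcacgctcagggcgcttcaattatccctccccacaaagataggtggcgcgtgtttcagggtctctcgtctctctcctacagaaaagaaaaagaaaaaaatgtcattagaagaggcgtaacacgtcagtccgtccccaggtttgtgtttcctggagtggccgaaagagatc
PRRX1: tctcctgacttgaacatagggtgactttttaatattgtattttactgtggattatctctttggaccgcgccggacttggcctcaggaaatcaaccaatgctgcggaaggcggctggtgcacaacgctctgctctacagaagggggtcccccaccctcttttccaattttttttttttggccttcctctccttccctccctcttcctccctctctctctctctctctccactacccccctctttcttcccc
The ZEB1 window held 2 matches, which begin 242 and 85 bases before the start. Another of the 7 ZEB1 windows held 1 match, 57 bases before its start, and the remaining 5 held 0. The windows of ZEB2, PRRX1, VIM and TWIST2 held 0. Of the 35116 windows of this length in the table, 17.5% held at least 1 match and 2.53% at least 2. The ZEB1 window is the best of 7, so the share for single windows is no measure for it. Of 56 genes with 7 or more windows, 14.3% had at least 2 matches in their best window. A match is a description of letters and not of binding.

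Facts of both arrays bear on every value. UGT8 itself was lower in all 3 of its probe sets, the brightest reading 6.61 on the knockdown array and 8.95 on the control array (-2.34). The arrays had medians of 6.64 each, and 88.3% of the 10439 genes past the floor lay within 1.5-fold. The floor is the median level of all probe sets that are not array controls (log2 6.64), and a gene was called past it by the mean of its brightest probe set over both arrays. The 23 background probe sets of the array averaged 4.73 on each array, and their 95th percentile was 8.87 on the knockdown array and 8.90 on the control array. That percentile, the ceiling first planned for background, lay above 76.6% of all probe sets with 1 symbol and above 11 of the 18 of the members, on both arrays. The 11 were the 1 of SNAI1, 3 of ZEB1, both of ZEB2, all 3 of TWIST1 and TWIST2 and both of PRRX1. Below, background means the mean of those probe sets, and readings above it are not shown to be clear of the brightest background probe sets. The hybridisation control RNAs were higher on the knockdown array at their median, by 0.51, and the poly-A control RNAs by 0.08. The 3′ minus 5′ difference of the ACTB control probe sets was 0.90 on the knockdown array and 0.49 on the control array, and that of GAPDH was 0.19 on the knockdown array and 0.18 on the control array. The part of these readings in the results was not tested. Of the markers that MDA-MB-231 cells carry (VIM, CD44, MSN, CAV1, AXL and SPARC), all 6 lay past the floor. Of 6 genes that the line is known to express little or not at all, ESR1, PGR, KRT20, ELF5 and SOX10 lay below the floor and CDH1 lay past it.

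**Figure D1:**
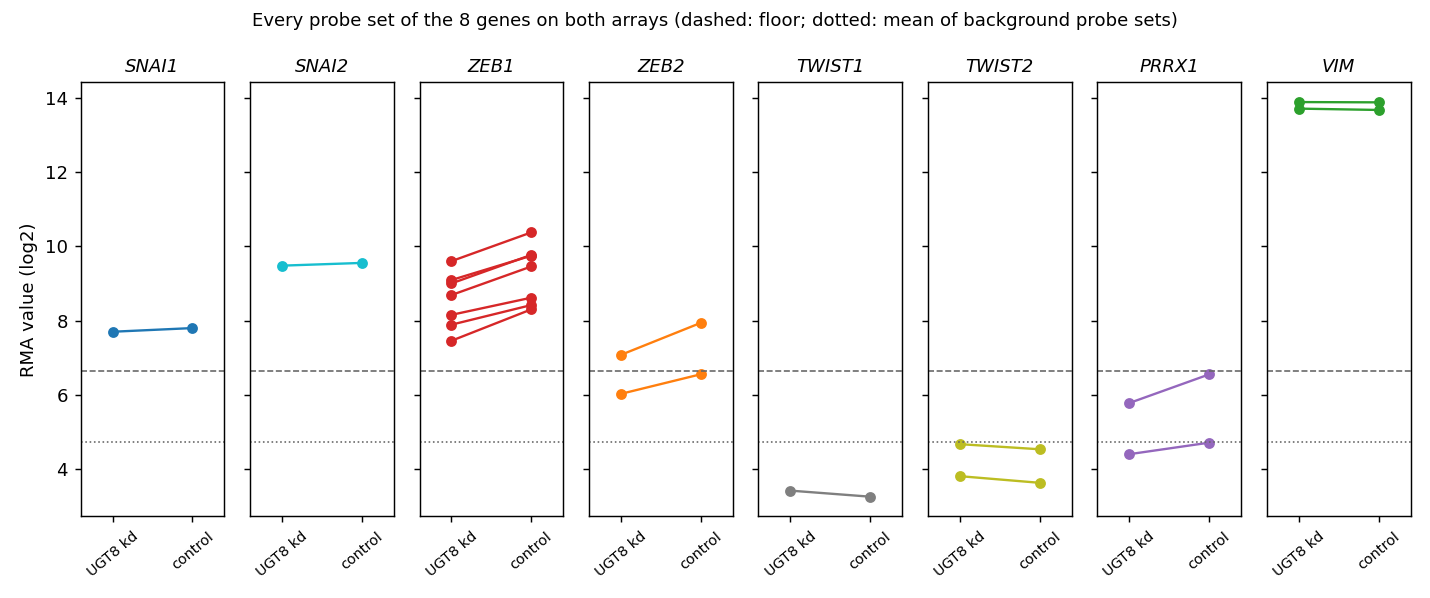
RMA values (log2, vertical axis) of all 18 probe sets of the 8 genes, with the UGT8-knockdown array on the left and the control array on the right of each panel, and 1 line for each probe set. All 7 ZEB1 lines, both ZEB2 lines and both PRRX1 lines are lower at the knockdown end, the VIM lines are level, and the TWIST1 and TWIST2 lines lie below the dotted mean of the background probe sets (4.73).

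ZEB1, which represses epithelial genes through its zinc finger clusters, was the member with the most probe sets, and all 7 were lower in the knockdown clone. The brightest, 11721547_s_at, read 9.60 on the knockdown array and 10.38 on the control array, a difference of -0.77 that left 58.4% of the control signal. Probe set 11721545_x_at read 9.00 on the knockdown array and 9.77 on the control array (-0.77). Probe set 11734686_x_at read 8.69 on the knockdown array and 9.46 on the control array (-0.77). These 3 readings differ by nearly the same amount, and they need not be independent, since probe sets of 1 gene can share probes. Probe set 11749136_x_at read 7.46 on the knockdown array and 8.30 on the control array (-0.85). It gave the lowest of the ZEB1 differences, 1.80-fold. Probe set 11749644_s_at read 9.09 on the knockdown array and 9.75 on the control array (-0.66). The other two were within 1.5-fold: 11721546_s_at read 7.89 on the knockdown array and 8.42 on the control array (-0.53), and 11758473_s_at read 8.15 on the knockdown array and 8.62 on the control array (-0.46). The ZEB1 differences averaged -0.69 ± 0.14 (SD, n = 7 probe sets on the same arrays, which are not replicates). All 7 ZEB1 probe sets carry the suffix _s_at or _x_at, with which Affymetrix marks possible hybridisation to more than 1 transcript, so leaving such probe sets out leaves no reading of ZEB1.

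The agreement between ZEB1 probe sets can be set beside that of other genes. For 6067 genes, 2 or more probe sets lay past the floor, and the differences within a gene had a median SD of 0.08. Of 192 genes that, like ZEB1, had 7 or more such probe sets, 70 had every reading lower and 11 had a mean difference of at least 1.5-fold lower, ZEB1 among them. Their median SD was 0.11, against 0.14 for ZEB1. In the level range of the ZEB1 probe sets, 7.64% of all probe sets were at least 1.5-fold lower. Of the ZEB1 probe sets, 5 of 7 were, but these 7 are readings of 1 gene on the same arrays and need not be independent.

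ZEB2, the paralogue of ZEB1 with the same zinc finger and homeodomain layout, was lower in both of its probe sets. Probe set 11756954_s_at read 7.08 on the knockdown array and 7.94 on the control array, a difference of -0.86 that left 55.0% of the control signal. Probe set 11747942_a_at read 6.02 on the knockdown array and 6.55 on the control array (-0.53), below the floor on both arrays. This second reading is the one without a suffix _s_at or _x_at, and it stayed within 1.5-fold. Both ZEB2 readings were lower on the knockdown array, and their mean was -0.70 ± 0.24 (SD over 2 probe sets).

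PRRX1, known in mice as a factor of limb and facial mesenchyme, lay below the floor on both arrays. Its brighter probe set, 11719363_s_at, read 5.78 on the knockdown array and 6.55 on the control array, a difference of -0.77. Both of these readings were above the mean of the background probe sets. The dimmer, 11737200_a_at, read 4.40 on the knockdown array and 4.71 on the control array, under that mean (4.73) on both arrays, so no fold is given for it. PRRX1 was thus lower in the reading that lies above that mean, which carries the _s_at suffix and is below the floor.

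The Snail repressors were each read by 1 probe set, both past the floor and neither marked for cross-hybridisation. SNAI1, which encodes Snail, a short-lived repressor of CDH1, read 7.70 on the knockdown array and 7.80 on the control array (-0.10). SNAI2, which encodes Slug, read 9.48 on the knockdown array and 9.55 on the control array (-0.07). The readings of both genes were slightly lower on the knockdown array. The error of these differences between arrays or cultures is unknown, as it is for every member.

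The Twist factors were not read above the background mean in either group. TWIST1 read 3.41 on the knockdown array and 3.25 on the control array. The brighter TWIST2 probe set read 4.67 on the knockdown array and 4.53 on the control array, and the dimmer 3.80 on the knockdown array and 3.63 on the control array. All of these lie below 4.73, so no fold is given and no difference is read from them. No level of TWIST1 or TWIST2 transcripts in these cells is read from the arrays.

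VIM differed least of the members past the floor. Probe set 11731394_a_at read 13.89 on the knockdown array and 13.88 on the control array (0.01), and 11755943_x_at read 13.71 on the knockdown array and 13.68 on the control array (0.04). These readings lie near the top of the arrays, whose highest values were 14.4 on the knockdown array and 14.3 on the control array. Whether this limits the difference that can be seen was not tested.

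**Figure D2:**
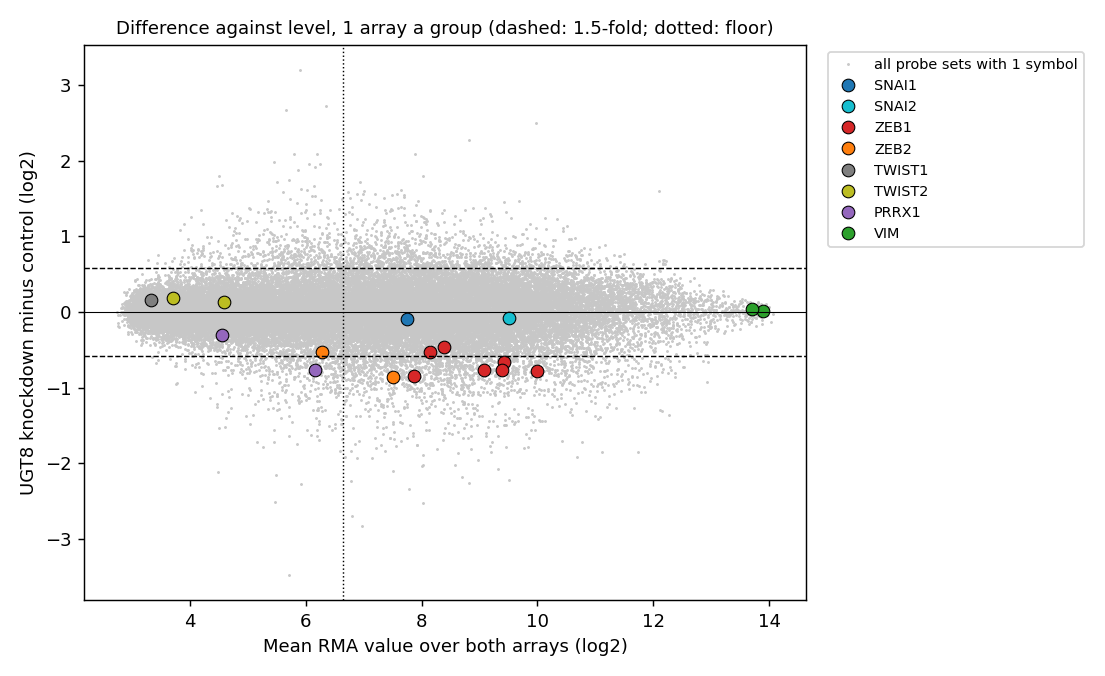
Difference of the UGT8-knockdown array minus the control array (log2, vertical axis) against the mean of both arrays (log2, horizontal axis) for all 45278 probe sets with 1 symbol in grey and the 18 of the members in colour. The 7 ZEB1 points and the 2 ZEB2 points lie from -0.46 to -0.86, at or past the lower edge of the dense grey cloud, and the VIM points lie on 0 at the right.

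As genes, 5 of the 8 members passed the floor (SNAI1, SNAI2, ZEB1, ZEB2 and VIM), and 2 of these 5 were at least 1.5-fold lower, ZEB1 and ZEB2. Over all genes past the floor, 6.74% were at least 1.5-fold lower. No member was at least 1.5-fold higher, against 4.96% of all genes past the floor. The median difference of the 5 members was -0.10, and that of all genes past the floor was 0.03. Of the 18 member probe sets, 7 were at least 1.5-fold lower (5 of ZEB1, 1 of ZEB2 and 1 of PRRX1), against 4.59% of all probe sets with 1 symbol. The 5 of ZEB1 are readings of 1 gene on the same arrays and need not be independent, so these probe sets are not separate observations. None of the 18 was at least 1.5-fold higher, against 3.56%. None of the 18 reached 2-fold in either direction. Ordered by difference, 254 genes past the floor (2.43%) lay below ZEB2 and 364 (3.49%) lay below ZEB1.

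How firmly these values stand depends on the probe sets and on the scale. Probe sets that end in _s_at or _x_at carried each of the 7 member readings at least 1.5-fold lower. Averaging all probe sets of a gene gave -0.69 for ZEB1, -0.70 for ZEB2 and -0.54 for PRRX1. The PRRX1 average takes in its reading under the background mean. When the scale was centred on the hybridisation controls, every difference was lowered by 0.51. ZEB1 then differed by -1.29, ZEB2 by -1.37, PRRX1 by -1.28, SNAI1 by -0.61, SNAI2 by -0.59 and VIM by -0.51, so that the number of members at least 1.5-fold lower was 4. VIM, close to 0 on the deposited scale, was also slightly below 0 when centred on the median, on a loess curve or on the poly-A controls (-0.07 on the last). ZEB1, ZEB2 and PRRX1 stayed below SNAI1, SNAI2 and VIM under each of these centrings. The centrings shift all or nearly all values alike, so this order could hardly change and is no measure of firmness.

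**Figure D3:**
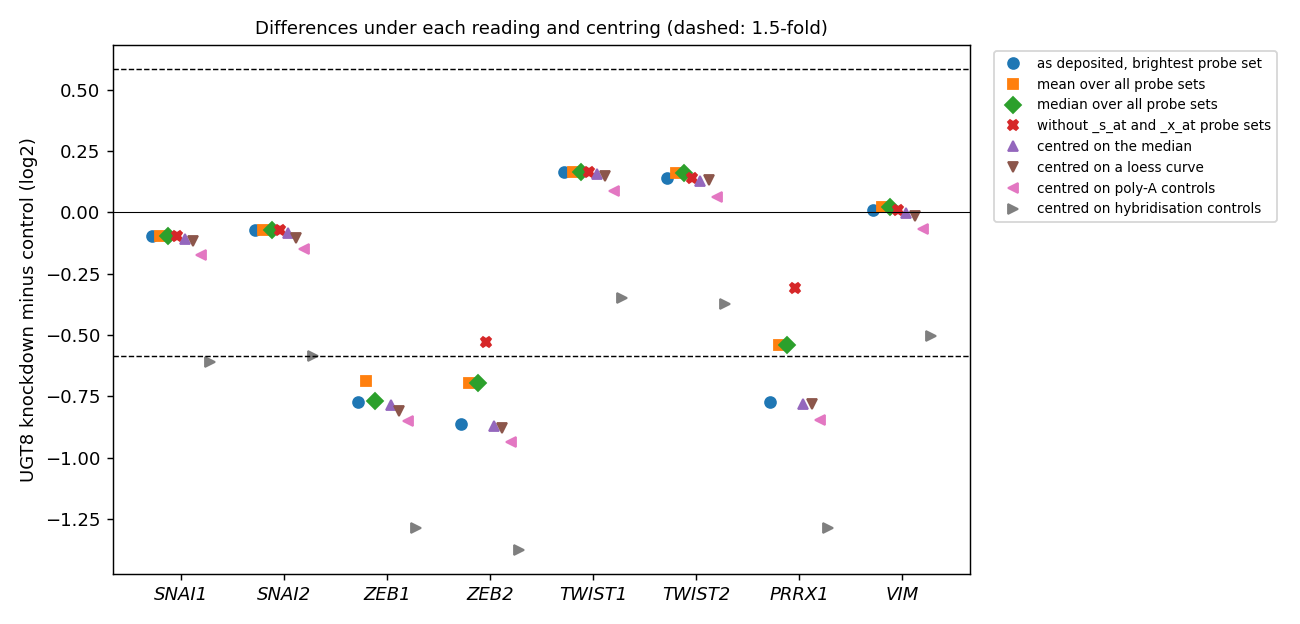
Difference of the UGT8-knockdown array minus the control array (log2, vertical axis) for each of the 8 genes under each reading of the probe sets and each centring, 1 symbol for each. ZEB1, ZEB2 and PRRX1 lie lower than SNAI1, SNAI2 and VIM at each centring, an order that centrings which shift all or nearly all values alike could hardly change. ZEB1 has no symbol without _s_at and _x_at probe sets, and centring on hybridisation controls moves all 8 genes down by 0.51.

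Epithelial genes listed as repressed in the transition lay on both sides of 0 on the deposited scale. Not each of them is shown to be a target of the member factors. Of 28 epithelial genes, 22 passed the floor, with 12 above 0 and 10 below 0 and a median of 0.03. At least 1.5-fold, 2 were higher and 1 was lower, against 4.96% and 6.74% of all genes past the floor. EPCAM, an epithelial adhesion molecule, read 8.97 on the knockdown array and 8.34 on the control array (0.62), and all 3 of its probe sets were higher. AP1M2, an epithelial subunit of the AP-1 sorting adaptor, read 10.01 on the knockdown array and 9.37 on the control array (0.64). LLGL2, a polarity gene, was the lower one (-0.95, or -0.60 averaged over both of its probe sets). CDH1, which encodes E-cadherin and is a direct target of Snail and ZEB repressors, read 7.66 on the knockdown array and 8.01 on the control array (-0.35). No epithelial gene was 1.5-fold higher on the scales centred on poly-A or hybridisation controls, and on the second 10 were at least 1.5-fold lower.

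Regulators that hold the epithelial state were mostly lower where they passed the floor. Of 17 such genes, 16 had a probe set and 8 passed the floor, 7 of them below 0, with a median of -0.46 past the floor and of -0.07 over all 16. At least 1.5-fold, 3 of the 8 were lower, against 6.74% of all genes past the floor. These were the ETS factor genes ELF3 (-0.96), EHF (-0.72) and SPDEF (-0.61), and all 8 EHF probe sets were lower. The splicing regulator gene ESRP1, which ZEB1 is known to repress, lay just below the floor at 6.71 on the knockdown array and 6.31 on the control array (0.40). Both ESRP1 probe sets were higher on the knockdown array. ESRP2 (0.36), its paralogue, and OVOL2 (0.33), a repressor of ZEB1, both below the floor and named after their values were seen, also read higher. GRHL2, a grainyhead factor that opposes ZEB1, read 4.77 on the knockdown array and 4.81 on the control array, near background.

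Mesenchymal genes that accompany the transition were mostly lower where they passed the floor. Of 30 such genes, 29 had a probe set and 20 passed the floor, 16 of them below 0, with a median of -0.42 past the floor and of -0.11 over all 29. At least 1.5-fold, 7 of the 20 were lower and 0 higher, or 4 lower without _s_at and _x_at probe sets. The share over all genes past the floor was 6.74% lower. COL3A1, a fibrillar collagen chain, differed by -1.53, the proteoglycan gene LUM by -1.34, the collagen chain gene COL6A3 by -1.32 and the cadherin gene CDH11 by -1.27. CDH2, which encodes N-cadherin, read 6.85 on the knockdown array and 6.64 on the control array (0.21). FN1, which encodes fibronectin, read 12.54 on the knockdown array and 12.74 on the control array (-0.20), and all 8 of its probe sets were lower. COL6A3 and LUM also stand in a list of 8 fibroblast markers, of which those 2 passed the floor. The summed linear signal of that list was 1314 on the knockdown array and 2961 on the control array, and most of it was that of COL6A3. The other 6 markers (COL1A1, COL1A2, PDGFRB, DCN, THY1 and FAP), all below the floor, summed to 249 on the knockdown array and 299 on the control array. The 5 endothelial markers summed to 392 on the knockdown array and 614 on the control array, and without PECAM1 (-1.09) to 227 on the knockdown array and 262 on the control array. The 5 leukocyte markers with a probe set summed to 898 on the knockdown array and 911 on the control array. Without CD68 they summed to 195 on the knockdown array and 268 on the control array, and CD14 differed by -0.73. The markers left out of these sums, and CD14, were picked after their values were seen. In RNA from a whole culture, fewer cells of a type and less RNA in each cell cannot be told apart. The part of these markers in the result was not tested.

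**Figure D4:**
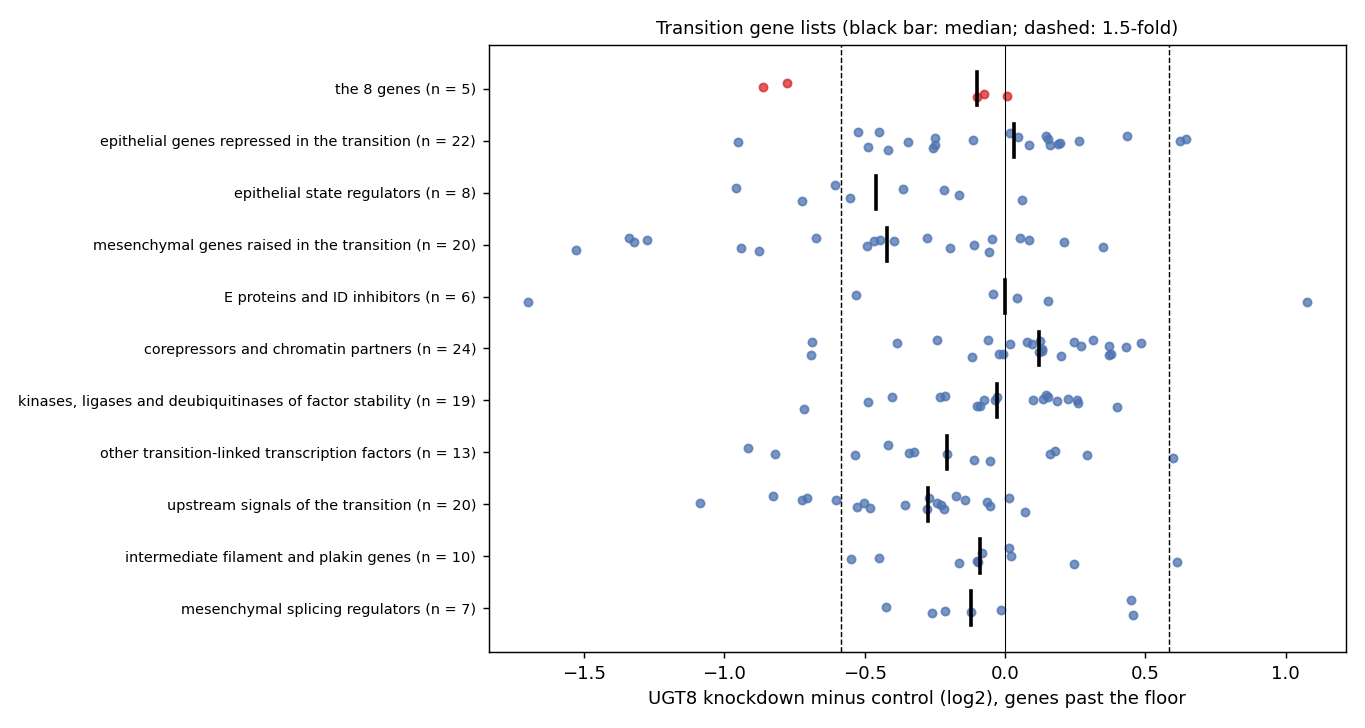
Difference of the UGT8-knockdown array minus the control array (log2, horizontal axis) for each gene past the floor in the members' row (red) and in the 10 lists of related genes (blue), with the median as a black bar. ZEB1 and ZEB2 stand apart from the other 3 members, the mesenchymal genes past the floor have a median of -0.42, and the epithelial genes are spread around 0.03.

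Partners that Twist factors need, or that hold E proteins back, went different ways. TCF3, TCF4 and TCF12 encode E proteins, the dimer partners of Twist. TCF3 differed by 0.15, TCF4 by -0.53 and TCF12 by 0.04, and all 11 TCF4 probe sets were lower. Averaged over all probe sets, TCF3 differed by 0.30, TCF4 by -0.23 and TCF12 by -0.07. ID proteins bind E proteins and keep them from DNA. ID3 read 7.95 on the knockdown array and 6.87 on the control array (1.07), higher in all 3 of its probe sets. ID4 read 7.52 on the knockdown array and 9.22 on the control array (-1.70), lower in all 4. ID1 (-0.04) and ID2 (-0.18, below the floor) were close to the control.

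Corepressors and chromatin partners of Snail and ZEB proteins were mostly near the control. All 24 passed the floor, 16 of them above 0, with a median of 0.12. KDM1A, the histone demethylase that Snail recruits, differed by 0.08, and CTBP1 and CTBP2, corepressors of ZEB proteins, by 0.02 and 0.10. LOXL2, a lysyl oxidase family member that binds Snail, was 1.61-fold lower (-0.69) in the brightest of 4 lower probe sets. RCOR1, the CoREST scaffold, read 9.54 on the knockdown array and 10.23 on the control array (-0.69, or -0.55 averaged over both of its probe sets). LOXL2 and RCOR1 were the 2 of 24 genes at least 1.5-fold lower, against 6.74% of all genes past the floor. Of genes that set the stability of these factors, 19 of 23 passed the floor, with a median of -0.03. FBXW7, a ubiquitin ligase subunit, was the 1 gene of the 19 past 1.5-fold (-0.72), lower in all 3 probe sets. This count too stands beside the 6.74% of all genes past the floor. The kinase gene GSK3B, whose product marks Snail for degradation, differed by -0.40 in its brightest probe set and by 0.08 in the other, and FBXL14, a ubiquitin ligase gene for Snail, lay under the background mean on both arrays at 4.69.

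Genes of signals upstream of the transition, which include the inhibitors SMAD6 and SMAD7, were lower in 18 of the 20 past the floor. The list held 24 genes, and the median past the floor was -0.28, against 0.03 for all genes past the floor. TGFB2 read 8.63 on the knockdown array and 9.72 on the control array (-1.09), and TGFB1 read 8.92 on the knockdown array and 9.75 on the control array (-0.83). Both encode TGF-beta ligands, which are known to induce SNAI1, SNAI2, ZEB1 and ZEB2. PDGFA (-0.72), SMAD6 (-0.70) and the receptor gene TGFBR1 (-0.60, named after its value was seen) completed the 5 genes at least 1.5-fold lower. These were 5 of 20, against 6.74% of all genes past the floor. Averaged over all probe sets, PDGFA differed by -0.41 and SMAD6 by -0.47. Among 22 other transcription factors linked to the transition, 13 passed the floor, with a median of -0.21. Of the 13, 2 were at least 1.5-fold lower and 1 higher, against 6.74% and 4.96% of all genes past the floor. SOX4 differed by -0.92, lower in all 7 of its probe sets, and RUNX2 by -0.82, while FOXM1, a factor of cell division, was higher by 0.60. FOXM1 was no longer past 1.5-fold on the scales centred on a loess curve, poly-A controls or hybridisation controls.

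Other intermediate filament genes, plakin genes and splicing regulators of mesenchymal cells stayed closer to the control. Of 15 intermediate filament and plakin genes, which include relatives and linkers of vimentin, 10 passed the floor, with a median of -0.09. LMNB2, a B-type lamin, was the 1 gene past 1.5-fold (0.61, or 0.47 over both probe sets), a call lost on those same scales. LMNB1 differed by -0.55. Over all genes past the floor, 4.96% were at least 1.5-fold higher and 6.74% lower. NES, which encodes nestin, a filament partner of vimentin, read 9.02 on the knockdown array and 9.00 on the control array. Of 8 splicing regulators of mesenchymal cells, 7 passed the floor and none reached 1.5-fold, with a median of -0.12. QKI, which regulates splicing and circular RNA formation in the transition, differed by -0.12.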

How the data were processed

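Total RNA of 2 samples was measured, 1 array of UGT8-knockdown cells and 1 of control cells, grouped by the genotype labels. The authors deposited log2 values made with RMA, per the submitters' processing notes. RMA corrects background, normalizes between arrays and summarises probe sets, which removes a shift common to most transcripts. The sources used here name neither the RMA software nor a genome build. Sorted, the values of the arrays differ by at most 0.0727.

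Of 49495 probe sets, 102 were array controls. Of the rest, 45278 had 1 symbol in the platform annotation, 1333 had several and 2782 had none. Of 18244 symbols, 18201 (99.8%) were in the RefSeq table for GRCh38.p14. Symbols were read as annotated, and a gene was read by the probe set with the highest mean of both arrays. Members, 10 related lists of 198 genes and thresholds were chosen with earlier results of these data known. Genes past 1.5-fold were counted, without a test, as the number of arrays limits the precision. Named were all members, UGT8, up to 4 genes in each list past 1.5-fold, and a few well-known genes of the transition. The background ceiling first planned, the 95th percentile of the 23 background probe sets (8.87 on the knockdown array, 8.90 on the control array), took in 76.6% of probe sets and 11 of the members' 18, so their mean was used. Counting was tested on simulated data. Python 3.11.15, pandas 2.3.3 and statsmodels 0.14.6 were used, and 13 alternatives were run.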

Additional observations from a re-analysis of the deposited data

Results flagged for a closer look

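The hybridisation control RNAs, which are no part of the comparison, were higher on the knockdown array than on the control array, by a median of 0.51 (range 0.22 to 0.66 over 18 probe sets). The 3′ minus 5′ difference of the ACTB control probe sets was 0.90 on the knockdown array, above the 0.49 on the control array. The part of either in the differences of ZEB1, ZEB2 and PRRX1 was not tested.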

How the results depend on the processing

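No paired analysis was possible because each group holds 1 array, and no array could be left out. Counts at least 1.5-fold lower are given first, and the value on the deposited scale is named before the others. Members were 2. They were 0 at a threshold of 2-fold, 1 under a floor at the 75th percentile, 0 without _s_at and _x_at probe sets and 4 when centred on hybridisation controls. Member probe sets were 7, and 0, 0 and 13 at 2-fold, without those suffixes and on the hybridisation scale. The cause was not tested, beyond ZEB1 having no probe set without the suffixes.

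For a threshold of 2-fold, the lower counts were 0 for epithelial genes, 0 for epithelial regulators, 4 for mesenchymal genes, 0 for corepressors, 0 for stability genes, 0 for other factors and 1 for signals. At the lowest threshold tried (log2 0.32) they were 6 for epithelial genes, 5 for epithelial regulators, 11 for mesenchymal genes, 2 for E proteins and IDs, 3 for stability genes, 6 for other factors, 9 for signals, 2 for filament genes and 1 for splicing genes. Centred on hybridisation controls they were 10, 7, 14, 2, 5, 8, 8, 16, 6 and 4 in the order epithelial genes, epithelial regulators, mesenchymal genes, E proteins and IDs, corepressors, stability genes, other factors, signals, filament genes and splicing genes. Centred on poly-A controls they were 2 for epithelial genes, 2 for E proteins and IDs and 1 for filament genes. Without suffixed probe sets, mesenchymal genes counted 4. Averaged over probe sets, corepressors counted 1 and signals 3, and by the median of probe sets 1 and 2. Under the 75th percentile floor, epithelial genes, stability genes and E proteins and IDs counted 0.

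Counts at least 1.5-fold higher were 0 at 2-fold and on the hybridisation and poly-A scales for epithelial genes, other factors and filament genes. E proteins and IDs counted 0 on the hybridisation scale and under the 75th percentile floor. Other factors counted 0 on the loess scale, and filament genes 0 on that scale, averaged, by the median or without suffixed probe sets. At that lowest threshold, mesenchymal genes counted 1, corepressors 5, stability genes 1 and splicing genes 2, and splicing genes 1 without suffixed probe sets. The other 247 counts stayed within 1.5 times of the value on the deposited scale, but that number does not measure firmness. Some could not change, since member probe sets were counted without a floor and no probe set with several symbols held a member. Genes of the members and lists were read from probe sets with 1 symbol in every run. Taking in those with several symbols therefore could not change their counts. Others were 0 and stayed 0. No difference of a member past 1.5-fold changed sign in any alternative run, but most of these runs could not change it. Thresholds and floors leave a difference as it is, and the constant centrings lowered every difference. Without suffixed probe sets ZEB1 had no reading.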

Other observations

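ZEB1-AS1, a transcript of the opposite strand whose start lies beside that of ZEB1, was read by 2 probe sets. One of them, past the floor, read 7.10 on the knockdown array and 7.10 on the control array, and the other read 6.44 on the knockdown array and 6.32 on the control array (0.12). Neither followed the lower readings of ZEB1, and the difference between the 2 genes was not tested. The host transcript of miR-205, a microRNA that represses ZEB1 and ZEB2, is MIR205HG. Its probe sets read 4.54 and 3.56 on the knockdown array, against 4.81 and 3.52 on the control array, near the mean of the background probe sets.

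Of the 192 genes with 7 or more probe sets past the floor, the 11 whose mean difference was at least 1.5-fold lower were ETV1 (-1.39), SOX4 (-0.93), VEGFA (-0.82), ARHGAP5 (-0.79), EHF (-0.74), SORBS2 (-0.73), LAMP2 (-0.72), ZEB1 (-0.69), ITGB4 (-0.66), NTM (-0.61) and TNIP1 (-0.61). Of all probe sets that are not array controls, 1744 (3.53%) had exactly the same value on both arrays.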
